A study of Danio rerio with 12 samples.

Results

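The strongest constitutive narrow regions of the early zebrafish embryo are 2860 of the 112288 merged accessible regions, 2.55% of all, that ranked high in each of 12 accessibility libraries. They were chosen by a rule on measured values. In each library's peak list, peaks on chromosomes 1 to 25 were ranked by their −log10 p-value, then by fold enrichment, then by position. The best 50000 peaks of all 12 lists were merged wherever they shared at least 1 bp, and a merged region became a member when it was under 1000 bp wide and overlapped a peak of rank 10000 or better in every list. The members were therefore selected on the −log10 p-values of all 12 libraries, so how their ranks and enrichments compare with those of other regions is a description, with no test. The rule treats the 12 lists alike and sets no stage or treatment against another, and the only tests on enrichment below compare stages and treatments in 1 fit over all constitutive regions. Among the 16955 constitutive regions, which overlapped a peak of rank 50000 or better in every list, 13637 were under 1000 bp wide and were not members. These are called moderate regions here. A further 127 regions met the rank limit in every list but were 1000 bp wide or more, and are not described.

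ATAC-seq, which maps accessible chromatin, uses a transposase that inserts adapters into DNA not wrapped around nucleosomes. Promoters of widely expressed genes and binding sites of the insulator protein CTCF are the textbook examples of sites that stay open in most cell types, whereas distal enhancers usually open in some cell types or stages only. All-trans retinoic acid (atRA) is a ligand of nuclear receptors that bind DNA and regulate genes of body patterning, among them the hox genes. Which of these classes a member belongs to was not analysed here, since no genome sequence or gene annotation of the build of the files was used, and members are named by position alone (GRCz10, also called danRer10, per the submitters' processing notes).

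The 12 libraries fall into 6 groups of 2 and were made from whole wild-type embryos that were dechorionated and deyolked. One pair of groups received 0.1 µM atRA or the solvent DMSO from 30% epiboly, a late blastula stage, and was collected at 80% epiboly. The other pairs received 0.1 µM atRA or DMSO from 80% epiboly and were collected at the 12-somite stage (12 somites) or 24 hours after fertilization (24 hpf). Each library holds all cell types of the embryo, so a change within a few cells and a weak change in many cells cannot be told apart. Nothing in the labels says whether the 2 libraries of a group came from separate clutches, and p-values then measure only the spread between these libraries, which may be technical. The peak names of both 24 hpf DMSO lists carry a word that no other list carries. Should it mark a batch, that batch and the treatment cannot be told apart at 24 hpf.

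The lists held 154354 to 439137 peaks. From each peak's fold enrichment and −log10 p-value the number of fragments piled up at its summit (the highest point of the peak) was recovered, together with the local background that the peak caller set against it. Only whole pileups were tried, and the −log10 p-value each gave matched that of its peak within 0.001. The most frequent background of a list, which rises with sequencing depth, ran from 0.69 in 12 somites DMSO replicate 1 to 3.28 in 80% epiboly DMSO replicate 2, a ratio of 4.75. It was 3.18 and 3.28 in the 80% epiboly DMSO libraries but 2.47 and 0.87 in their atRA libraries, and 0.69 and 1.15 in the 12 somites DMSO libraries but 1.60 and 1.44 in their atRA libraries. Depth therefore differed with treatment at both stages, in opposite directions, and its part in the comparisons of treatments below was tested only as far as the fits with depth as a covariate go.

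Members stood high in every list without being equally high in each. The median member had a best rank of 562 and a worst rank of 5762.5 over the 12 lists. Only 3 members ranked 100 or better in every list, 35 ranked 500 or better, 103 ranked 1000 or better, 326 ranked 2000 or better and 1226 ranked 5000 or better. Of the best 100 peaks of a list, 80 to 96 lay in members, and of the best 1000 peaks, 722 to 877 did. A member's worst rank fell most often in 80% epiboly atRA replicate 1, for 370 members, and least often in 12 somites atRA replicate 2, for 92. The median pileup at a member's summit ranged over libraries from 37 to 107 fragments, against 21 to 78 in moderate regions. The median fold enrichment ranged from 12.1 to 16.5 in members.

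**Figure D1:**
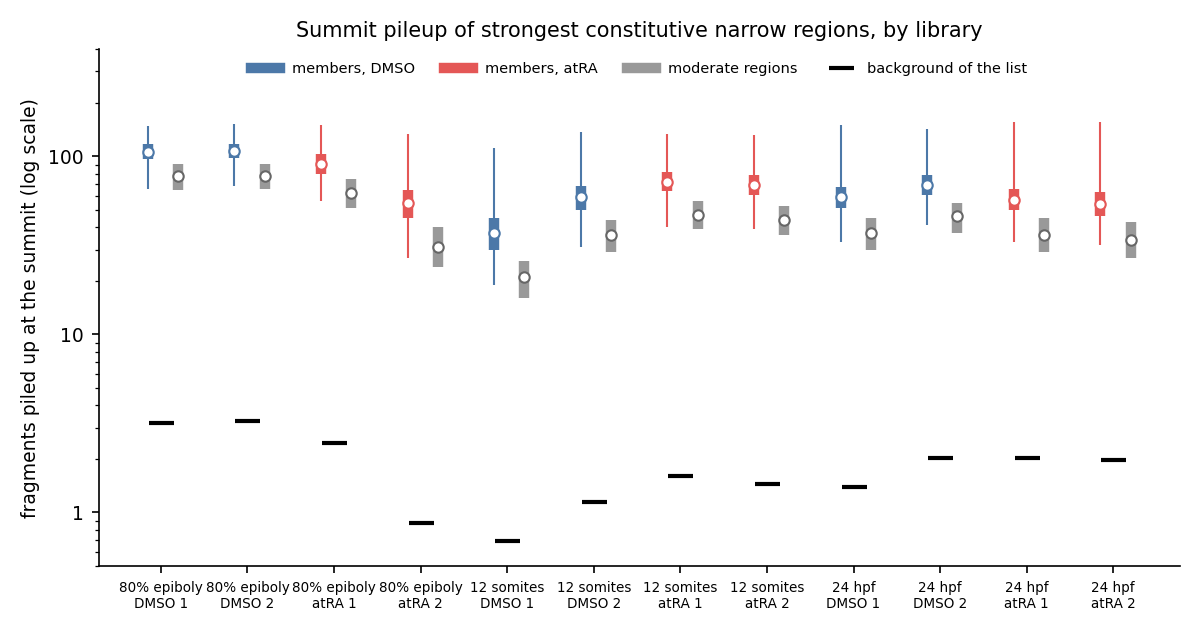
Fragments piled up at the summit (log axis) in each of 12 libraries. Circles are medians, thick bars run from the 25th to the 75th percentile and thin lines from the lowest to the highest member. Grey bars are moderate regions and black dashes the most frequent background of the list. Median member pileups run from 37 in 12 somites DMSO replicate 1 to 107 in 80% epiboly DMSO replicate 2, while the tallest member of a library stays between 111 and 156.

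The member with the best worst rank was chr20:4437638-4438071, 434 bp wide. It was the first peak in 10 lists, the second in 24 hpf atRA replicate 1 and the third in 80% epiboly DMSO replicate 2. Its pileup was 136 and 129 fragments in the 80% epiboly DMSO libraries, 143 and 133 with atRA, 109 and 137 in 12 somites DMSO, 130 and 132 with atRA, 132 and 138 in 24 hpf DMSO, and 141 and 148 with atRA. The values of the 3 stages overlapped, as did those of the treatments at 80% epiboly and 12 somites. At 24 hpf both atRA libraries lay above both DMSO libraries by pileup, which is not adjusted for depth. Its fold enrichment at 24 hpf went the other way, with 28.4 and 25.6 in DMSO and 24.3 and 24.7 with atRA. Its summit moved within 18 bp over all 12 libraries.

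The next was chr17:53292556-53292910, 355 bp wide, which ranked between 2 and 33. Its pileup was 141 and 129 fragments in 80% epiboly DMSO, 137 and 113 with atRA, 109 and 125 in 12 somites DMSO, 129 and 127 with atRA, 127 and 119 in 24 hpf DMSO, and 135 and 131 with atRA. The treatments overlapped at 80% epiboly. At 12 somites and 24 hpf both atRA libraries lay above both DMSO libraries by at least 2 fragments, with no adjustment for depth. By fold enrichment both atRA libraries lay below both DMSO libraries at 12 somites (27.6 and 28.8 against 29.2 and 29.8). At 24 hpf the fold enrichments overlapped, with 24.3 and 22.8 with atRA and 25.2 and 21.5 in DMSO. The third, chr22:32273996-32274581, ranked between 2 and 36, but its pileup followed depth more closely, from 72 in 12 somites DMSO replicate 1 to 138 in 80% epiboly DMSO replicate 2. The remaining 7 of the 10 members with the best worst ranks were chr3:9704355-9704799 and chr23:12426606-12427325 (worst rank 101 each), chr20:52459230-52459671 (105), chr20:51248294-51248797 (161), chr20:53133776-53134304 (183), chr10:43200164-43201021 (212) and chr1:1253801-1254558 (213). Chromosome 20 holds 4 of these 10.

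At the limit of the rule, the members with the poorest worst ranks were chr6:50405342-50405736 at 9990, chr3:40783782-40784403 at 9996 and chr20:28398003-28398632 at 9997. The regions just outside were chr13:11630370-11630927 at 10006, chr24:9607247-9607883 at 10013 and chr19:17479690-17480045 at 10018. The last of these ranked 788 in 12 somites atRA replicate 1 and missed the limit in 80% epiboly atRA replicate 2 alone, so the rule divides regions that are much alike.

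Pileups of the strongest members differed by the smallest ratio between the deepest and the shallowest list. The pileup in the deepest list (80% epiboly DMSO replicate 2) over that in the shallowest (12 somites DMSO replicate 1) had a median of 2.87 over members and 3.72 over moderate regions, while the backgrounds of the 2 lists stood at a ratio of 4.75. The ratio reached that of the backgrounds in 40 members (1.40%), against 22.4% of moderate regions. Within the members the median ratio was 2.20 for those of median rank 1 to 250, 2.57 for 251 to 1000, 2.79 for 1001 to 2000, 3.06 for 2001 to 4000 and 3.29 for 4001 to 10000. These are descriptions of 2 libraries that also differ in stage, and rank and pileup share their source. The highest pileup of any peak in a list ran only from 111 to 162 over the 12 lists, a ratio of 1.46. The part of this narrow range in the low ratios of the strongest members was not tested.

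**Figure D2:**
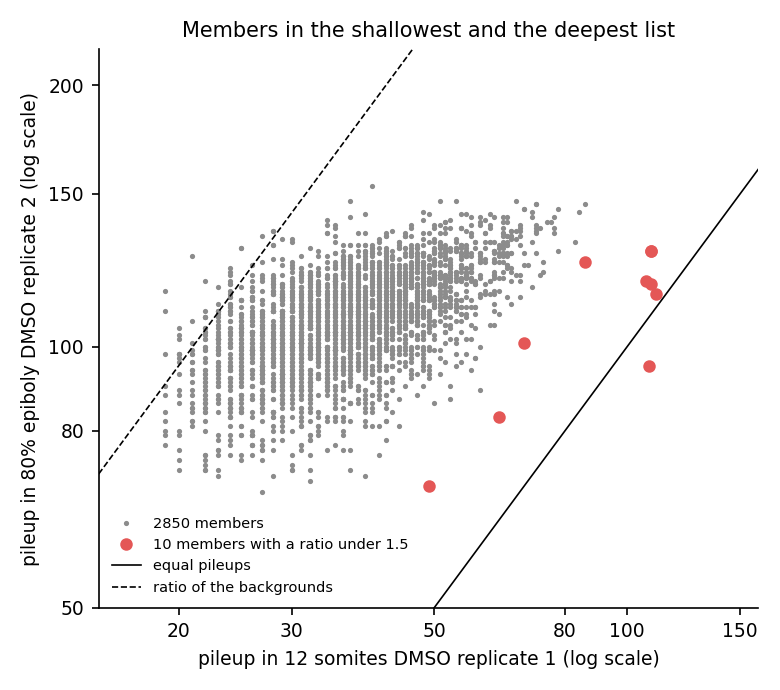
Pileup of each member in the deepest list (vertical, log axis) against the shallowest list (horizontal, log axis). Each point is a member; the solid line marks equal pileups and the dashed line the ratio of the 2 backgrounds, 4.75. Red points are the 10 members with a ratio under 1.5; they lie nearer to the solid line, right of the cloud of the other members.

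There were 10 members with a ratio under 1.5, a set chosen after its values were seen. They include the first and second regions above, with a ratio of 1.18 each, and chr14:19788745-19789469, whose pileup was 130 and 115 in 80% epiboly DMSO, 126 and 120 with atRA, 111 and 124 in 12 somites DMSO, 127 and 129 with atRA, 126 and 134 in 24 hpf DMSO, and 140 and 141 with atRA. Its pileup thus stayed between 111 and 141 over libraries whose backgrounds span 4.75-fold, and its rank went from 3 in the shallowest list to 1760 in the deepest. A neighbouring pair, chr10:16835971-16836778 and chr10:16842643-16843311, ran from 109 to 144 and from 99 to 145 fragments, and both reached ranks of 12 or better in several lists while falling to 5444 and 4051 in an 80% epiboly DMSO library. The local background was high at most of the 10: in the shallowest list it was 1.54 at the median member but 5.18 at chr14:19788745-19789469, 8.01 and 7.63 at the chromosome 10 pair and 2.48 at chr20:4437638-4438071. Its part in the flat pileups was not tested.

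Another of the 10, chr15:7293694-7294240, had fewer fragments in the deepest list than in the shallowest, at a ratio of 0.88. Its pileup was 91 and 95 in 80% epiboly DMSO, 95 and 77 with atRA, 108 and 110 in 12 somites DMSO, 115 and 107 with atRA, 55 and 82 in 24 hpf DMSO, and 90 and 85 with atRA. All 4 libraries of 12 somites lay above all 8 others. The region was named for a low ratio of an 80% epiboly library to a 12 somites library, which partly sets this order in advance.

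The narrowest member was chr17:45219324-45219527, 204 bp wide, whose summit fell on the same base in 11 of 12 libraries and 2 bp away in the other. Its pileup was 79 and 83 in 80% epiboly DMSO, 80 and 39 with atRA, 63 and 78 in 12 somites DMSO, 71 and 79 with atRA, 80 and 78 in 24 hpf DMSO, and 82 and 88 with atRA. 80% epiboly atRA replicate 2 was far below the other 11. Member widths had a median of 523 bp, with quartiles of 427 and 649 bp, against a median of 465 bp in moderate regions. The next narrowest were chr10:42947521-42947766 and chr18:2990957-2991207, and the 3 widest were chr7:13129989-13130983, chr7:16096631-16097625 and chr7:34416828-34417826, which spanned 999 bp. Counting only the peaks used for merging, 2665 members overlapped a single peak in every list, by at least 1 bp. Several such peaks overlapped 195 members (6.82%) in at least 1 list, against 7.79% of moderate regions. Weaker peaks were not counted.

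Members were spread over all 25 chromosomes, at 2.13 per Mb, with each chromosome measured up to the end of its last peak in any list. Chromosome 5 held the most, 181. Chromosome 22 was the densest, with 116 members at 2.96 per Mb and 23.2 members per 100 constitutive regions, against 16.9 per 100 over all chromosomes. Chromosome 4 was the sparsest, with 48 members at 0.626 per Mb and 12.8 per 100 constitutive regions.

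The members of chromosome 4 left most of its length empty: 36 lay in the first 30 Mb, none between 30 and 70 Mb, and 12 beyond 70 Mb. Merged regions of any strength were sparse there too, with 1081, 917 and 682 in the first 3 stretches of 10 Mb, 152, 145, 135 and 144 in the next 4, and 388 from 70 Mb on. The stretch from 26047728 to 70691705 was the longest gap between neighbouring members on any chromosome, at 44644 kb, where the median gap was 255 kb. The 12 members beyond 70 Mb lie among 61 constitutive regions beyond 30 Mb and include strong ones. The first of them, chr4:70691705-70692184, ranked between 22 and 928, and chr4:73490466-73490866 between 25 and 1024.

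Members did not form dense groups. Another member lay within 10 kb of 153 members (5.35%), 62 windows of 10 kb held a pair and none held 3. The pair with the shortest span from first to last base was chr5:68439152-68439503 and chr5:68439658-68440095. They ranked between 805 and 5226 and between 283 and 1235. The smallest gap between neighbouring members, 0.125 kb, belonged to another pair. Another constitutive region of any strength lay within 10 kb of 30.5% of members and of 34.2% of moderate regions.

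The summits of members were steady over development and treatment. Summit position played no part in the rule. Over the 12 libraries the summit of a member moved within a median range of 59 bp, against 73 bp in moderate regions. It stayed within 50 bp for 1099 members (38.4%) and 22.5% of moderate regions, and moved over more than 200 bp for 33 members (1.15%) and 7.47%. Measured per library as the median distance from the median summit of the other 11 lists, the scatter was 8.58 ± 0.793 bp (SD, n = 12 libraries) in members and 11.2 ± 1.96 bp in moderate regions. It was lower in members in 12 of 12 libraries, with a mean difference of −2.67 ± 1.23 bp (SD, n = 12 libraries). No p is given for a value taken over chosen members. The libraries share the consensus they are measured against. Members also had more fragments at their summits, with median pileups of 37 to 107 against 21 to 78, and the part of that difference in the scatter was not tested.

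The steadiest summits after chr17:45219324-45219527 were those of chr2:39709736-39710487, within 4 bp, and chr9:29686986-29687365, within 5 bp. The least steady were those of chr11:19612126-19613080, over 609 bp, chr5:68011314-68012192, over 593 bp, and chr6:50476377-50477300, over 580 bp. At chr11:19612126-19613080 the summit stood between bases 19612837 and 19612868 in 10 libraries and at 19612259 and 19612278 in 12 somites DMSO replicate 1 and 12 somites atRA replicate 2. At chr5:68011314-68012192 it stood between bases 68012010 and 68012064 in 10 libraries, at 68011622 in 80% epiboly atRA replicate 1 and at 68011471 in 12 somites DMSO replicate 1. At chr6:50476377-50477300 it stood between 50476568 and 50476593 in 7 libraries and between 50477140 and 50477148 in 5, which were both 12 somites atRA libraries and replicate 2 of 80% epiboly DMSO, 80% epiboly atRA and 24 hpf atRA. The treatments were thus apart at 12 somites at this member, by 560 bp (adjusted p = 0.846 in the limma fit described below), while the libraries of 3 other groups were split between the 2 points.

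The order of the members within a library, from the highest to the lowest fold enrichment, was on average more alike within a stage than between stages. Fold enrichments were used as an order within each list, which does not compare the values of different lists. Spearman's rho over the 2860 members had a mean of 0.674 over 66 pairs of libraries, from 0.411 to 0.957. Pairs of the same stage had a mean of 0.753 (0.597 to 0.957) and pairs of different stages 0.644 (0.411 to 0.766), so single pairs overlapped. The difference was 0.109, and is given as a description with no p, since fold enrichments come from the same peaks as the −log10 p-values that chose the members. The 3 pairings of stages were close to each other, with a mean of 0.647 for 80% epiboly with 12 somites, 0.627 for 80% epiboly with 24 hpf and 0.658 for the later 2 stages. The shallowest library, 12 somites DMSO replicate 1, had the lowest mean rho with the other 11, 0.525, against 0.623 to 0.733 for the rest. The shallowest of 80% epiboly, atRA replicate 2, had 0.681, 0.686 and 0.698 with its own stage. With the 12 somites libraries it had 0.543, 0.675, 0.679 and 0.681. The other libraries of 80% epiboly had 0.866 to 0.957 with each other. The part of depth in these values was not tested.

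Within a stage, libraries of the same treatment had a mean rho of 0.785 and libraries of different treatment 0.737. The difference averaged 0.0489 over stages, with 0.0504 for 80% epiboly, 0.0597 for 12 somites and 0.0365 for 24 hpf. It too is given with no p. This separation was small: without 80% epiboly DMSO replicate 1 it fell to 0.00475, without 80% epiboly DMSO replicate 2 to 0.00794, without 12 somites atRA replicate 1 to 0.014 and without 12 somites atRA replicate 2 to 0.0131. Without 24 hpf DMSO replicate 1 it was 0.0334. Without 80% epiboly atRA replicate 1 it rose to 0.122. Without the 24 hpf stage it was 0.0551. At 80% epiboly the DMSO pair had a rho of 0.957 and the atRA pair 0.698, against 0.681 to 0.876 across treatments. At 12 somites the DMSO pair had 0.655 and the atRA pair 0.866, against 0.597 to 0.808. At 24 hpf the DMSO pair had 0.799 and the atRA pair 0.7375, against 0.7055 to 0.769. At each stage 1 pair of the same treatment thus lay above the pairs across treatments and the other lay among them.

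**Figure D3:**
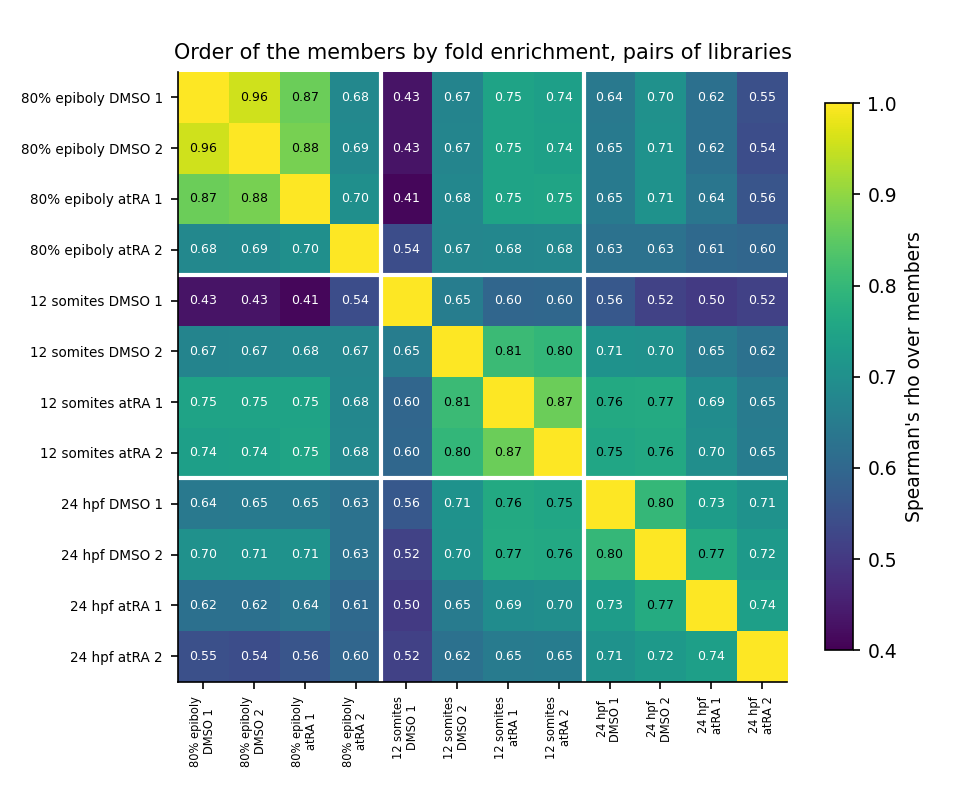
Spearman's rho of the members' fold enrichments in every pair of the 12 libraries (colour scale from 0.4 to 1; white lines part the stages, diagonal not numbered). The highest value, 0.957, joins the 2 libraries of 80% epiboly DMSO, and the lowest, 0.411, joins 80% epiboly atRA replicate 1 with 12 somites DMSO replicate 1.

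To find which members moved, all 16955 constitutive regions were ranked by fold enrichment within each list, the ranks were turned into normal scores (in SD units of a normal distribution), and stages and treatments were compared with limma in 1 fit over all regions, with Benjamini-Hochberg adjustment and a threshold of 0.05. From 80% epiboly to 12 somites 390 members changed position (13.6%, against 16.3% of all constitutive regions). Of these, 338 moved up (11.8% of members, against 7.89% of all regions) and 52 down (1.82% against 8.39%). From 80% epiboly to 24 hpf 579 members changed (20.2% against 28.0%), 491 up (17.2% against 13.9%) and 88 down (3.08% against 14.0%). From 12 somites to 24 hpf 97 members changed (3.39% against 11.3%), 41 up (1.43% against 5.26%) and 56 down (1.96% against 6.02%). A rule that asks for a high rank in every list narrows how far a member can move, so nothing is read from the lower shares. Fold enrichments come from the same peaks as the −log10 p-values that chose the members, so the direction of the members' moves is a description. The adjusted p-values belong to the fit over all constitutive regions.

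The counts of upward and downward moves changed with the value used for the order. With depth as a covariate they changed little from 80% epiboly to 24 hpf and more in the other steps. The −log10 p-values are those that chose the members, so counts from their order are given as an alternative and support nothing. Percentages in this paragraph give the share of members first and that of all constitutive regions second. Ordered by −log10 p-value, 121 members moved up (4.23% against 9.34%) and 99 down (3.46% against 9.81%) from 80% epiboly to 12 somites. From 80% epiboly to 24 hpf 254 moved up (8.88% against 16.8%) and 240 down (8.39% against 16.9%). From 12 somites to 24 hpf 125 moved up (4.37% against 10.1%) and 198 down (6.92% against 10.3%). With the log2 background of the list as a covariate, 18 moved up (0.629% against 1.65%) and 7 down (0.245% against 1.48%) from 80% epiboly to 12 somites. From 80% epiboly to 24 hpf it was 466 up (16.3% against 14.3%) and 106 down (3.71% against 14.1%). From 12 somites to 24 hpf it was 67 up (2.34% against 4.04%) and 25 down (0.874% against 5.08%). Of the 579 members called from 80% epiboly to 24 hpf, 513 remained called with the depth covariate and 210 when ordered by −log10 p-value. Of the 390 called from 80% epiboly to 12 somites, 22 and 117 remained. Of the 97 called from 12 somites to 24 hpf, 30 (17 up and 13 down) and 74 remained. The 80% epiboly DMSO libraries were the deepest and the 12 somites libraries among the shallowest, and depth and stage cannot be told apart for that step beyond these fits.

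Single libraries also weighed on the counts. A fit without 1 library leaves 1 library in its group, and shares of all constitutive regions are not given for such fits. Nothing about the members is therefore read from any count of such a fit, here or below, beyond its dependence on single libraries. The count of 390 became 139 without 80% epiboly DMSO replicate 1, 137 without 80% epiboly DMSO replicate 2, 187 without 80% epiboly atRA replicate 1, 232 without 12 somites DMSO replicate 1, 180 without 12 somites atRA replicate 1 and 183 without 12 somites atRA replicate 2. The count of 579 became 263 without 80% epiboly DMSO replicate 1, 272 without 80% epiboly DMSO replicate 2, 342 without 80% epiboly atRA replicate 1 and 345 without 24 hpf DMSO replicate 1. The count of 97 became 53 without either 80% epiboly DMSO library, 31 and 38 without 12 somites atRA replicates 1 and 2, and 47, 39, 52 and 51 without 24 hpf DMSO replicates 1 and 2 and 24 hpf atRA replicates 1 and 2.

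The members named next are, for each step, the 3 per direction with the smallest adjusted p. Their positions are given as percentiles of the 16955 constitutive regions, where 100 is the highest fold enrichment. Each of these calls held when any 1 of the 12 libraries was left out and with the depth covariate.

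The clearest loss was at chr2:55858782-55859242. It stood at percentiles 97.7 and 98.9 in 80% epiboly DMSO, 98.1 and 98.2 with atRA, 99.0 and 98.4 in 12 somites DMSO, 97.4 and 98.0 with atRA, 73.9 and 66.7 in 24 hpf DMSO, and 68.3 and 67.5 with atRA. All 4 libraries of 24 hpf lay below all 8 earlier ones. The fall was 1.61 ± 0.240 normal-score units (SE) from 80% epiboly (limma, adjusted p = 7.88e-05) and a similar step from 12 somites (adjusted p = 0.000719).

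Another fall at 24 hpf was that of chr4:72444132-72444459, one of the 12 members beyond 70 Mb of chromosome 4. It stood at 70.0 and 74.2 in 80% epiboly DMSO, 78.1 and 93.9 with atRA, 96.9 and 98.5 in 12 somites DMSO, 96.3 and 95.8 with atRA, 60.1 and 58.7 in 24 hpf DMSO, and 40.7 and 61.4 with atRA. Its position was highest at 12 somites in all 4 libraries of that stage and lowest at 24 hpf (24 hpf minus 12 somites −1.76 ± 0.258 SE, limma, adjusted p = 0.000707). The third, chr3:10784865-10785234, stood between 97.0 and 99.9 in the 8 earlier libraries and between 82.7 and 94.3 at 24 hpf (−1.46, limma, adjusted p = 0.00143).

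Falls after 80% epiboly were led by chr16:43106100-43106476. It stood at 99.4 and 98.6 in 80% epiboly DMSO, 99.8 and 99.8 with atRA, 80.2 and 81.6 in 12 somites DMSO, 89.8 and 89.6 with atRA, 82.1 and 82.2 in 24 hpf DMSO, and 97.2 and 91.1 with atRA. It fell by 1.54 to 12 somites (limma, adjusted p = 0.00055) and by 1.33 to 24 hpf (adjusted p = 0.000522). In both later stages both atRA libraries lay above both DMSO libraries. No member passed for atRA at either of these stages, and how many regions part in this way was not counted. The member chr21:16930955-16931706 fell by 1.49 from 80% epiboly to 24 hpf (limma, adjusted p = 0.000586), from 98.8 to 99.8 down to 77.7 to 92.1.

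One member dipped at a single stage. chr19:9462335-9462800 stood at 98.8 and 97.7 in 80% epiboly DMSO, 92.8 and 90.3 with atRA, 64.7 and 62.7 in 12 somites DMSO, 71.1 and 69.4 with atRA, 98.3 and 93.0 in 24 hpf DMSO, and 94.7 and 88.7 with atRA. The 4 libraries of 12 somites lay below all 8 others, and both steps passed (−1.31, limma, adjusted p = 0.00191, then 1.17, adjusted p = 0.00535). The member chr7:57796213-57796815 also fell to 12 somites, from 82.2 to 95.2 down to 35.7 to 62.7 (−1.31, limma, adjusted p = 0.00238), and stood at 72.5 to 85.9 at 24 hpf.

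Among rises from 80% epiboly to 24 hpf, chr12:48356393-48357307 had the smallest adjusted p. It stood at 3.26 and 2.75 in 80% epiboly DMSO, 10.6 and 35.2 with atRA, 75.2 and 60.5 in 12 somites DMSO, 20.3 and 26.3 with atRA, 65.0 and 60.6 in 24 hpf DMSO, and 77.0 and 90.1 with atRA. It rose by 2.02 ± 0.265 (SE, limma, adjusted p = 3.04e-05), and the 4 libraries of 24 hpf lay above the 4 of 80% epiboly. Its low percentiles at 80% epiboly are by fold enrichment, which divides by a local background, whereas the members were chosen by −log10 p-value. The members chr25:2070823-2071328 (2.00, limma, adjusted p = 3.39e-05) and chr3:1398154-1398892 (1.94, adjusted p = 4.43e-05) rose from 34.1 to 72.6 up to 94.8 to 99.4, and from 7.84 to 31.1 up to 74.9 to 87.1.

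From 12 somites to 24 hpf, chr5:1461388-1461875 rose from 84.2 to 94.6 up to 98.8 to 99.9 (1.27, limma, adjusted p = 0.00303) and chr10:7531918-7532340 from 57.2 to 81.6 up to 94.6 to 97.9 (1.19, adjusted p = 0.00533). From 80% epiboly to 12 somites the rises with the smallest adjusted p were at chr8:7936904-7937414 (1.68, limma, adjusted p = 0.000368), chr8:1218790-1219670 (1.83, adjusted p = 0.000426) and chr10:39133307-39134165 (1.63, adjusted p = 0.000514). Ordered by −log10 p-value these 3 had limma adjusted p-values of 0.14, 0.0537 and 0.0995. The −log10 p-values chose the members, so these values support nothing.

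**Figure D4:**
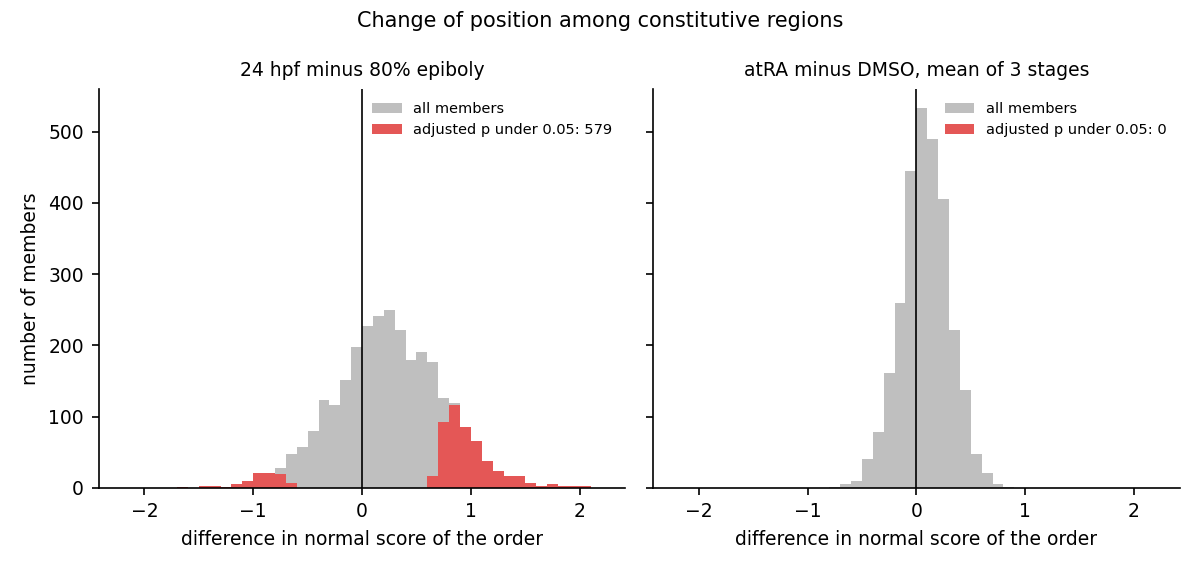
Change in position (normal-score units, horizontal) of the 2860 members against their number (vertical), from 80% epiboly to 24 hpf on the left and from DMSO to atRA over 3 stages on the right. Grey bars are all members and red bars those with an adjusted p under 0.05: 579 on the left, none on the right.

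For atRA no member passed the test. The mean difference of atRA from DMSO over 3 stages called 0 members (0.0%, against 0.0059% of all constitutive regions). So did 80% epiboly (0.0% against 0.0236%), 12 somites (0.0% against 0.0%) and 24 hpf (0.0% against 0.0%) taken alone. At an unadjusted p under 0.05 there were 156 members over the 3 stages (5.45%, against 8.54% of all constitutive regions). There were 460 at 80% epiboly (16.1% against 13.0%), 276 at 12 somites (9.65% against 12.5%) and 138 at 24 hpf (4.83% against 8.84%). Ordered by −log10 p-value, 1 member passed over the 3 stages (0.035%, against 0.0767% of all constitutive regions) and 2 at 80% epiboly (0.0699% against 0.49%). Those are the values that chose the members, so these 2 counts support nothing. Some members passed at 80% epiboly without 80% epiboly atRA replicate 1, and at 12 somites without 12 somites DMSO replicate 2. Those fits leave 1 library in a group, and nothing about the members is read from them. The members with the smallest p over 3 stages were chr13:17255978-17256575 upward (0.88, limma, adjusted p = 0.232) and chr14:13147000-13147372 downward (−0.69, adjusted p = 0.37), and neither passed.

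The values at chr13:17255978-17256575 were percentiles 22.2 and 14.7 in 80% epiboly DMSO, 62.7 and 67.0 with atRA, 78.1 and 89.3 in 12 somites DMSO, 86.9 and 90.8 with atRA, 58.7 and 69.3 in 24 hpf DMSO, and 91.3 and 94.6 with atRA. The groups were apart at 80% epiboly and 24 hpf and overlapped at 12 somites. The members as a whole leaned in opposite directions at the first stages: their median change with atRA was 0.33 in 80% epiboly, −0.18 in 12 somites and 0.11 in 24 hpf libraries, where the medians of all constitutive regions were 0.03, −0.03 and 0.03. With the depth covariate the members' medians were 0.10, −0.02 and 0.16. Ordered by −log10 p-value they were 0.03, 0.04 and −0.02.

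The difference of the atRA effect between stages was tested as well. Between 80% epiboly and 12 somites it passed for 14 members (0.49%, against 0.961% of all constitutive regions). Of these, 2 had a higher effect at 12 somites and 12 a lower one. For 24 hpf against either earlier stage no member passed by limma (0.0% of all regions in each case). At an unadjusted p under 0.05 there were 158 members against 80% epiboly (5.52%, where 7.58% of all constitutive regions were). Against 12 somites there were 312 (10.9%, where 12.9% of all were). With the depth covariate none of the 14 remained. The most frequent background was higher with DMSO at 80% epiboly and with atRA at 12 somites, and depth was examined only through that covariate. The count of 14 depended on single libraries. It fell without either 80% epiboly DMSO library, 80% epiboly atRA replicate 2 or either 12 somites atRA library. It also fell without 12 somites DMSO replicate 1 or either 24 hpf DMSO library. It rose without 12 somites DMSO replicate 2 or 80% epiboly atRA replicate 1.

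Summit positions were compared with the same fit, in bp from the centre of the region, positive toward higher coordinates. The lists give 1 summit per peak, the highest point. From 80% epiboly to 12 somites the summits of 11 members moved (0.385%, against 1.09% of all constitutive regions). From 80% epiboly to 24 hpf 35 did (1.22% against 2.21%), and from 12 somites to 24 hpf 5 (0.175% against 0.419%). Without 12 somites DMSO replicate 2, 27 moved in the first step, and without either 24 hpf atRA library, 17. In the second, 23 moved without 80% epiboly DMSO replicate 1 and 19 without 24 hpf DMSO replicate 1. In the third, 3 moved without either 80% epiboly DMSO library, 10 without 12 somites atRA replicate 1, 12 without 24 hpf atRA replicate 2, and 13 without 12 somites DMSO replicate 2 or 24 hpf atRA replicate 1.

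At chr15:43356296-43357057 the summit lay at −17.5 and −15.5 bp in 80% epiboly DMSO, −9.5 and −24.5 with atRA, 43.5 and 37.5 in 12 somites DMSO, 43.5 and 48.5 with atRA, 56.5 and 54.5 in 24 hpf DMSO, and 52.5 and 58.5 with atRA. All 8 later libraries lay above the 4 of 80% epiboly, by 60.0 ± 6.14 bp at 12 somites (SE, limma, adjusted p = 0.00311) and 72.2 ± 6.14 bp at 24 hpf (adjusted p = 0.00082). Other members moved at another stage. At chr24:38899617-38900097 the summit stood at 10 to 27 bp in the 8 libraries of the first 2 stages and at 65 to 73 bp in all 4 libraries of 24 hpf (51.0 bp from 12 somites, limma, adjusted p = 0.018; 0.0772 with the depth covariate). That call held in 10 of 12 fits that left out 1 library and was weakest without 12 somites atRA replicate 1. It was also lost with the replicate number as a block (limma, adjusted p = 0.0535).

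At chr2:35620929-35621717 the summit stood apart at 12 somites alone, at −164 to −154 bp against −226 to −213 bp in the 8 other libraries (57.2 bp from 80% epiboly, limma, adjusted p = 0.00311, and −61.5 bp on to 24 hpf, adjusted p = 0.00333). At chr16:13790338-13790873 it stood at 54.5 to 57.5 bp at 80% epiboly, at 2.5 bp in every library of 12 somites and at 3.5 to 20.5 bp at 24 hpf (−53.8 bp, limma, adjusted p = 0.00366).

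With atRA, few summits moved: 3 members over the 3 stages together (0.105%, against 0.289% of all constitutive regions). There were 4 at 80% epiboly (0.14% against 0.389%), 2 at 12 somites (0.0699% against 0.153%) and 4 at 24 hpf (0.14% against 0.218%). The calls of 3 members held without any 1 library, with the depth covariate and with the replicate number as a block. These were chr4:72666509-72667270 and chr13:29515444-29516265, each in the mean of the 3 stages and at 80% epiboly, and chr11:43992741-43993263 in that mean, at 12 somites and at 24 hpf. A call in the mean need not recur at each stage. At chr4:72666509-72667270 all libraries of 12 somites and 24 hpf lay between −224.5 and −213.5 bp, and at chr13:29515444-29516265 the treatments overlapped at 24 hpf. The counts themselves moved with single libraries. The count over 3 stages was 10 without 12 somites DMSO replicate 2, 9 without 24 hpf atRA replicate 1, 6 without 12 somites DMSO replicate 1, and 5 without either 80% epiboly DMSO library, 80% epiboly atRA replicate 1 or 12 somites atRA replicate 2. The count at 80% epiboly was 15 without 80% epiboly atRA replicate 1, 8 without either 12 somites atRA library, and 7 without 80% epiboly DMSO replicate 2 or either 12 somites DMSO library. The count at 12 somites was 25 without 12 somites DMSO replicate 2, 4 without 12 somites DMSO replicate 1, and 1 without either 12 somites atRA library, 24 hpf DMSO library or 80% epiboly DMSO library. The count at 24 hpf was 10 without 24 hpf atRA replicate 1, 8 without either 12 somites DMSO library and 1 without either 80% epiboly DMSO library.

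At chr11:43992741-43993263 the summit lay at 110 and 120 bp in 80% epiboly DMSO, 105 and 85 with atRA, 62 and 85 in 12 somites DMSO, −62 and −55 with atRA, 95 and 105 in 24 hpf DMSO, and −74 and −65 with atRA. The treated libraries of both later stages were on the other side of the centre from all 8 others. The shift with atRA was −132 ± 11.6 bp at 12 somites (SE, limma, adjusted p = 0.00496) and −169.5 bp at 24 hpf (adjusted p = 0.00119). It differed from that at 80% epiboly by −149.5 bp at 24 hpf (adjusted p = 0.01) and by −112 bp at 12 somites (adjusted p = 0.0497, lost with the depth covariate at 0.101 and highest without 12 somites atRA replicate 1 at 0.164).

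At chr4:72666509-72667270 the 2 libraries of 80% epiboly DMSO stood alone, at 215.5 and 222.5 bp, while the 10 others lay between −224.5 and −198.5 bp. The shift with atRA at 80% epiboly was −419.5 ± 7.88 bp (SE, limma, adjusted p = 5.11e-07). Those 2 libraries are also the deepest of the 12, and their depth and their group cannot be told apart in the raw positions. At chr13:29515444-29516265 the summit lay at −38.5 bp in both 80% epiboly DMSO libraries, −184.5 and −169.5 with atRA, −97.5 and −108.5 in 12 somites DMSO, −162.5 and −172.5 with atRA, −172.5 and −179.5 in 24 hpf DMSO, and −165.5 and −179.5 with atRA. The treated libraries of 80% epiboly stood where all libraries of 24 hpf stood, and the DMSO libraries approached that position stage by stage (80% epiboly shift −138.5 bp, limma, adjusted p = 0.000883).

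The other summits that moved with atRA did so by 61.0 to 76.0 bp and lost the call with the depth covariate and without at least 1 library. At 80% epiboly these were chr17:32826532-32827201 (71.5 bp, limma, adjusted p = 0.0139) and chr19:42056700-42057445 (−66.5 bp, adjusted p = 0.0291). At 12 somites it was chr4:72627533-72627935, which stood at −28 and −30 bp in the 2 treated libraries and between 33 and 57 bp in the 10 others (−76.0 bp, limma, adjusted p = 0.0429). At 24 hpf they were chr4:1951866-1952621 (72.5 bp, adjusted p = 0.0239), chr6:6101112-6101620 (67.5 bp, adjusted p = 0.0314) and chr19:25842964-25843393 (−61.0 bp, adjusted p = 0.0438), all by limma. At chr6:6101112-6101620 the treated libraries lay at 60 and 62 bp and the 10 others between −12 and 2 bp, and at chr19:25842964-25843393 they lay at −79.5 and −78.5 bp and the 10 others between −28.5 and −16.5 bp. Both 24 hpf patterns rest on the stage at which DMSO lists carry the extra word.

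**Figure D5:**
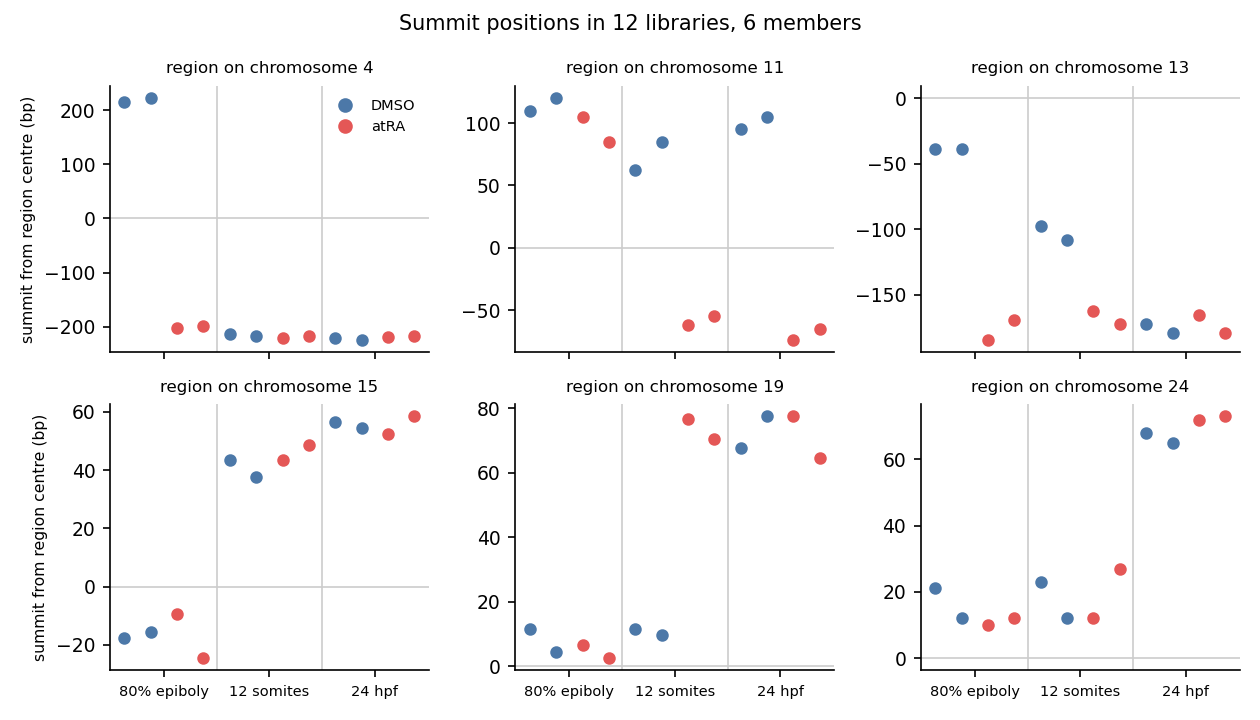
Summit position (bp from the centre of the region, vertical) in the 12 libraries, by stage, of 6 members. They have the smallest adjusted p for a fall with atRA in the mean of 3 stages (chromosomes 4, 11 and 13) or a rise from 80% epiboly to 24 hpf (chromosomes 15, 19 and 24). Each point is 1 library, blue for DMSO and red for atRA; on chromosome 11 the treated libraries of 12 somites and 24 hpf lie at −74 to −55 bp and all others at 62 to 120 bp.

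Summits also differed in their response to atRA between stages, for 3 members between 80% epiboly and 12 somites (0.105%, against 0.313% of all constitutive regions). Between 80% epiboly and 24 hpf there were 5 (0.175% against 0.301%), and 2 between the later stages (0.0699% against 0.236%). The first count was 8 without 12 somites DMSO replicate 2, 6 without 12 somites DMSO replicate 1, 80% epiboly DMSO replicate 2 or 80% epiboly atRA replicate 2, and 5 without 80% epiboly atRA replicate 1. The second was 10 without 80% epiboly atRA replicate 1, 9 without 80% epiboly DMSO replicate 2, and 8 without 80% epiboly DMSO replicate 1 or 24 hpf atRA replicate 1. The third was 9 without 12 somites DMSO replicate 2, 7 without either 24 hpf atRA library, 6 without 12 somites DMSO replicate 1, 4 without 24 hpf DMSO replicate 2 and 1 without either 12 somites atRA library. The clearest besides those above was chr17:32826532-32827201, whose summit took one of 2 positions in every library. It lay at 58.5 and 63.5 bp in 80% epiboly DMSO, 127.5 and 137.5 with atRA, 127.5 and 127.5 in 12 somites DMSO, 70.5 and 68.5 with atRA, 70.5 and 68.5 in 24 hpf DMSO, and 123.5 and 127.5 with atRA. Both libraries of a group always stood together, and the treated ones were the higher at 80% epiboly and 24 hpf and the lower at 12 somites (difference of effects −129.5 bp from 80% epiboly to 12 somites, limma, adjusted p = 0.00339, and 114 bp from there to 24 hpf, adjusted p = 0.00858). With the depth covariate the first was 0.101.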

How the data were processed

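The deposited files are 12 peak lists, 1 for each ATAC-seq library of whole zebrafish embryos. Bowtie2, SAMtools and MACS2 are named in the submitters' processing notes, with the build GRCz10, and versions are not given in the sources used here. Peak names carry a word for nucleosome-free fragments. By the column layout of the deposited lists, each peak has a score, a fold enrichment (a ratio over local background), a −log10 p-value, a −log10 q-value and a summit offset, all set by the authors' peak caller. No list pools libraries.

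Peaks were ranked and merged with Python 3.11.15, as the report states. Pileup and local background at a summit were solved from fold and p. The fold was taken as (pileup + 1) over (background + 1) and p as a Poisson tail. Only whole pileups were tried, and the −log10 p-values were matched within 0.001. The region's value in a list is that of its best-ranked peak. Comparisons used limma 3.58.1 (R 4.3.3) in 1 fit of 6 group means (residual df 6) over 16955 regions, on normal scores of ranks or on summit positions; p-values were Benjamini-Hochberg adjusted. The steps were checked on simulated data. The members and the rules for naming regions were chosen with earlier results of these data known. Regions named are the 10 best by worst rank, 3 on each side of the rank limit, 3 per direction and contrast by adjusted p, and the extremes of width, summit range and spacing. Intervals for pileups are not given: fragments may share molecules. Sequence content and neighbouring genes were not analysed here. Alternatives changed the rank, merging and width limits, the value used for ranking and order, the depth covariate, the replicate block, the empirical Bayes setting and the libraries included. Permutation tests of summit scatter and of the separation of stages and treatments were planned and are not reported, because each is a score over members chosen on measured values.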

Additional observations from a re-analysis of the deposited data

Results flagged for a closer look

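The items below drew attention because the effect of atRA differed between stages by a test of the difference itself (limma interaction contrast, Benjamini-Hochberg adjustment over 16955 regions). For position in the order by fold enrichment, 14 members passed between 80% epiboly and 12 somites. The named ones had a difference of 2.27 normal-score units at chr14:38469107-38469420 (adjusted p = 0.038), 2.48 at chr22:1769098-1769443 (adjusted p = 0.0447), −2.35 at chr10:10780343-10780914 (adjusted p = 0.0359), −2.37 at chr3:18606273-18606624 (adjusted p = 0.0359) and −2.62 at chr7:25466244-25466698 (adjusted p = 0.038). At chr14:38469107-38469420 the percentiles were 99.5 and 99.6 in 80% epiboly DMSO, 93.2 and 87.7 with atRA, 91.9 and 95.8 in 12 somites DMSO and 99.0 and 99.8 with atRA. With the depth covariate the adjusted p of these 5 was 0.373 to 0.825, and each lost the call in at least 6 of 12 fits that left out 1 library.

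For summit position, 3 members passed between 80% epiboly and 12 somites, with differences of 416 bp at chr4:72666509-72667270 (adjusted p = 8e-06), −129.5 bp at chr17:32826532-32827201 and −112 bp at chr11:43992741-43993263. Between 80% epiboly and 24 hpf 5 members passed, with 424 bp at chr4:72666509-72667270 (adjusted p = 6.9e-06), 142 bp at chr13:29515444-29516265 (adjusted p = 0.0065), 112.5 bp at chr4:1951866-1952621 (adjusted p = 0.00721), −149.5 bp at chr11:43992741-43993263 and −87 bp at chr2:56224598-56225056 (adjusted p = 0.0327). The chr2 call was lost with the depth covariate (adjusted p = 0.264) and the replicate block (0.085) and held in 3 of 12 fits that left out 1 library, and chr4:1951866-1952621 was lost with the depth covariate (0.0677). Between 12 somites and 24 hpf 2 members passed, with 114 bp at chr17:32826532-32827201 and −100 bp at chr6:3549636-3549994 (adjusted p = 0.0182), of which the second was lost with the replicate block (0.0519). The calls from 80% epiboly to 12 somites at chr17:32826532-32827201 and chr11:43992741-43993263 were lost with the depth covariate (adjusted p = 0.101 each), and the latter also with the block (0.0914). At chr6:3549636-3549994 the summit lay at −29 to −18 bp in 80% epiboly and 12 somites DMSO and in 80% epiboly atRA, at 20 and 21 bp in 12 somites atRA, at 21 and 19 bp in 24 hpf DMSO and at −28 and −33 bp in 24 hpf atRA.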

How the results depend on the processing

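The rank limit and the width limit set the number of members: 1226 at a rank limit of 5000, 6478 at 20000 and 1265 at a width limit of 500 bp. Merging 20000 or 100000 peaks gave 2870 and 2856, ranking by fold enrichment 2055, a stricter overlap of peak and region 2263 and a q-value limit of 0.01 the same 2860. The lower summit scatter and the separation of stages kept their direction under every alternative run, with scatter differences of −4.64 to −1.42 bp and stage separations of 0.0886 to 0.215. The separation of treatments was 0.0551 without the 24 hpf stage.

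Ordered by −log10 p-value, 1 member was called for atRA over 3 stages (0.035%, against 0.0767% of all constitutive regions) and 2 at 80% epiboly (0.0699% against 0.49%). Counts from this order rest on the values that chose the members and support nothing. Percentages in this paragraph give the share of members first and that of all constitutive regions second. In that order 220 were called from 80% epiboly to 12 somites (7.69% against 19.2%) and 323 from 12 somites to 24 hpf (11.3% against 20.4%). The difference of atRA effects between 80% epiboly and 12 somites called 1 (0.035% against 0.265%). With the depth covariate the stage step to 12 somites called 25 (0.874% against 3.13%) and that difference 0 (0.0% against 0.0059%). Both together, an alternative chosen after seeing the data, gave 1, 40, 233 and 0 for atRA over 3 stages, the first step, the last step and the difference. Shares of all constitutive regions are not given for these counts or those of the next sentence. Untransformed percentiles called 48 in the last step and 1 for the difference, and leaving out 24 hpf gave 0 for the difference. For summits the depth covariate called 2 (0.0699% against 0.159%), 1 (0.035% against 0.106%) and 1 (0.035% against 0.112%) members for atRA at the 3 stages. It called 5 in the first step (0.175% against 0.661%) and 3 in the last (0.105% against 0.348%). For the differences of effects it called 1 from 80% epiboly to 12 somites (0.035% against 0.147%) and 3 from 80% epiboly to 24 hpf (0.105% against 0.159%).

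Deviations of same-numbered libraries in the order correlated at −0.028, 0 and −0.07 in the 3 stages. Whether same-numbered libraries shared a clutch or batch cannot be told from these values. With the replicate block the difference of atRA effects called 4 members by order. The block called 1 summit for atRA at 12 somites, 1 at 24 hpf, 18 from 80% epiboly to 24 hpf, 2 from 12 somites to 24 hpf and 1 for the last difference of effects. The order counts under the block were 360, 546 and 84 for the 3 steps and 0 for atRA. Shares of all constitutive regions under the block are not given here, so nothing about the members is read from these counts.

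Leaving out 1 library gave 2884 to 3051 members, scatter differences of −3.27 to −2.82 bp, stage separations of 0.0886 to 0.125 and treatment separations of 0.00475 to 0.122. The counts that follow come from fits with 1 library in a group and stand without the shares of all constitutive regions. They describe only how the counts depend on single libraries. Members called by order ranged over 0 to 0 for atRA over 3 stages, 0 to 94 at 80% epiboly, 0 to 20 at 12 somites, 0 to 0 at 24 hpf, 137 to 574, 263 to 735 and 31 to 139 for the steps from 80% epiboly to 12 somites, to 24 hpf and from 12 somites to 24 hpf, and 0 to 255, 0 to 0 and 0 to 11 for the differences of effects. Summit calls ranged over 3 to 10 for atRA over 3 stages, 3 to 15, 1 to 25 and 1 to 10 at each stage, 9 to 27, 19 to 46 and 3 to 13 for the steps, and 2 to 8, 5 to 10 and 1 to 9 for the differences. Of 424 alternatives in all, 304 kept direction and side or stayed within 1.5 times of the count.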
